A study of Mus musculus with 16 samples.

Results

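The comparison described here set mouse bone marrow-derived macrophages (BMDMs), cells that were differentiated in culture, in tumor conditioned medium against BMDMs in plain medium. Its members were the samples titled CM_1, CM_2 and CM_3 and the samples titled No_CM_1 and No_CM_2, which are 5 of the 16 samples of the series. CM is medium conditioned by 4T1 cells, a mouse mammary tumor cell line, and the No_CM samples, called DMEM below, had DMEM alone. All of them came from WT Balb/c mice with an age of 8 weeks, and no inhibitor was added. BMDMs were starved of serum before the treatment, and RNA was taken after 4 h. The CM came from 4T1 cells that were themselves starved of serum, and it was spun to remove debris. The study grew 4T1 cells in a medium based on RPMI, but the basal medium of the starvation step is not given in the sources used here. What 4T1 cells released, what they used up and any difference in basal medium from DMEM therefore cannot be told apart. The labels number the replicates without saying whether they are separate mice or cultures. P-values thus measure only the spread within groups, estimated over all 16 samples of the series, and that spread may be technical.

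Macrophages exposed to inflammatory or tumor-derived factors change more than their secreted cytokines. Activation is known to move their metabolism toward glycolysis and arginine use, to alter iron handling and sterol traffic, to exchange one set of surface receptors for another, and to slow division. Transcription factors of the NF-κB, AP-1, C/EBP and STAT families act early in this response, while lineage factors such as PU.1 hold macrophage identity.

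Per-gene read counts summed to between 18892363 and 38502700 in the 5 samples. Levels are given in CPM, counts brought to the same library total in every sample, with each total adjusted by its relative log expression (RLE) factor. Testing covered the 12372 genes that exceeded 1 CPM in 2 or more samples of the series. Calls required adjusted p-values below 0.05 together with log2 fold changes larger than 0.5 in size (edgeR's quasi-likelihood test with Benjamini-Hochberg adjustment), and standard errors (SE) belong to log2 fold changes. By this rule 2584 genes (20.9% of those tested) were higher and 2980 (24.1%) were lower in CM. Of all calls 46.4% were rises, against 25.0% when samples were scaled by total counts alone, which gave 1536 higher and 4606 lower genes. RLE scaling placed the median of all genes 0.31 higher on the log2 scale than total counts did, so every change below is relative to that median. The samples of the groups did not overlap in 9251 genes (74.8%), among them 5536 called ones, and the genes named below as risen or fallen are among these. Changes beyond 2 on the log2 scale in either direction were seen in 570 higher and 384 lower genes. Where a group held no sample above 3 counts, which corresponds to up to 0.167 CPM in CM and 0.123 CPM in DMEM, the fold is given as a bound that covers counting error only.

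The label of macrophages was checked with marker genes. The summed level of 10 macrophage markers was 46901 to 55873 CPM in CM and 42911 to 44336 CPM in DMEM, and all 10 were tested, with 2 called higher and 2 lower. Cd14, 1 of the 2 higher ones, carried the higher sum in CM, and the other 9 summed to 34473 to 39952 CPM in CM and 40383 to 42637 CPM in DMEM. Adgre1, the gene of the surface marker F4/80, had 1346, 1604 and 1401 CPM in CM and 1418 and 1646 CPM in DMEM, and the groups overlapped. The 12 epithelial markers, which 4T1 cells could supply, summed to 1.18 to 1.61 CPM in CM and 0.0819 to 0.118 CPM in DMEM, with 3 of them at 0 in all 5 samples and none above the filter on low counts. The 11 neutrophil markers summed to 9.33 to 10.2 CPM against 2.42 to 3.60 CPM, and both of those tested, S100a8 and Mmp8, were called higher, while Ly6g, Elane and Retnlg were at 0 in all 5 samples. The summed levels in CM against DMEM were 0.505 to 1.17 against 0.0409 to 0.0887 CPM for T and NK cells, all of it from Cd247 with the other 8 of 9 markers at 0, and 0.208 to 0.407 against 0.0409 to 0.0591 CPM for mast cells, with 4 of 5 at 0. For B cells they were 0.122 to 0.267 against 1.15 to 1.21 CPM, for dendritic cells 1.90 to 3.01 against 1.51 to 1.98 CPM, and for fibroblasts 26.9 to 30.5 against 22.6 to 29.96 CPM. The part of such cells in the results below was not tested. In these bulk samples fewer cells of a type and less RNA per cell cannot be told apart.

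The genes were described with 40 hand-written lists in 5 programs, of which 1247 genes were tested. Of all genes tested 20.9% were called higher and 24.1% lower. Metabolism held 391 tested genes with 81 called higher (20.7%) and 84 lower (21.5%). Its median log2 fold change was -0.02, near the median of all genes (-0.005). Cell cycle held 202 genes with 39 higher (19.3%) and 85 lower (42.1%), at a median of -0.47. Its genes include some cyclins and kinases that act in transcription. Surface receptors held 324 genes with 127 higher (39.2%) and 81 lower (25.0%), at a median of 0.32. Transcription factors held 232 genes with 101 higher (43.5%) and 44 lower (19.0%), at a median of 0.36. Growth, the lists for ribosome assembly, tRNA charging and protein folding, held 112 genes with 34 higher (30.4%) and 3 lower (2.7%). Its median was 0.30, and with scaling by total counts 16 were higher and 19 lower. Under total counts metabolism had 54 higher and 149 lower genes and cell cycle 23 and 108. Receptors had 107 and 106, and transcription factors 81 and 68. Of all 12372 genes tested, 1536 were higher and 4606 lower under that scaling. Receptors then had about as many rises as falls, while rises were 25.0% of the calls over all genes.

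**Figure D1:**
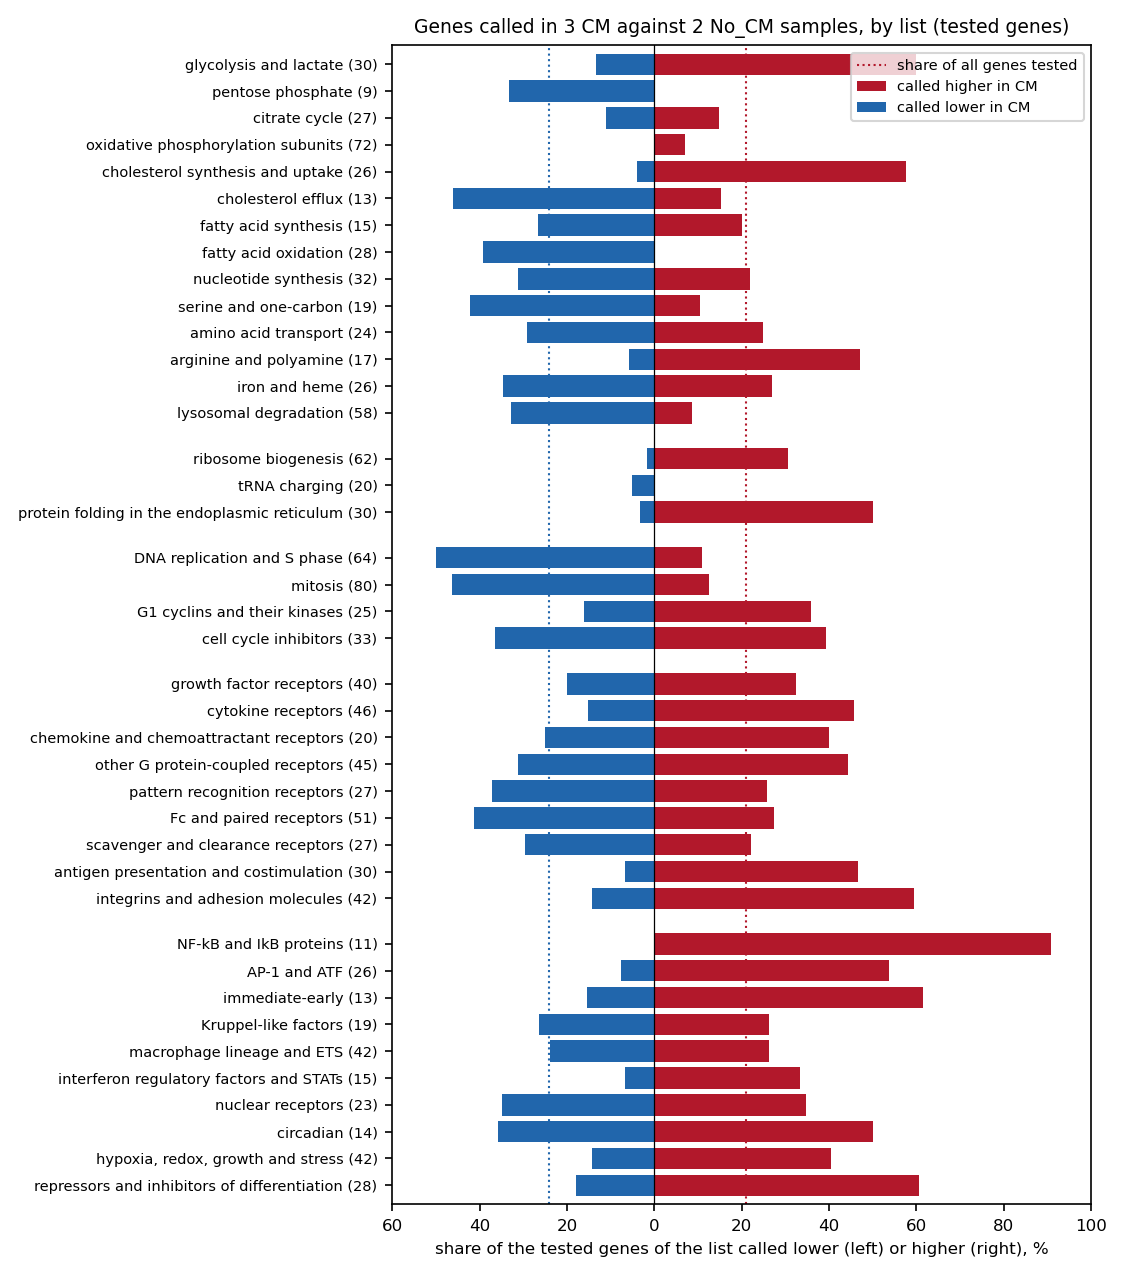
Share of the tested genes of each list called lower (blue, to the left) or higher (red, to the right) in 3 CM samples against 2 No_CM (DMEM) samples, in percent, with the number of tested genes in parentheses and dotted lines at the shares of all genes (24.1% and 20.9%). NF-kB and IkB proteins (10 of 11 higher), glycolysis (18 of 30 higher) and adhesion molecules (25 of 42 higher) reach far past the right line, and DNA replication (32 of 64 lower) and mitosis (37 of 80 lower) past the left one.

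Most glycolytic genes rose in CM, from the glucose carrier to the lactate exporter. Of 30 genes tested 18 rose and 4 fell by these criteria, at a median of 0.77, and their summed level was 11986 to 14052 CPM in CM against 4811 and 5337 CPM in DMEM. Pfkfb3, whose product makes the strongest activator of phosphofructokinase, had 902, 1009 and 628 CPM in CM and 33.5 and 40.4 CPM in DMEM, a log2 fold change of 4.52 ± 0.29 (SE, adjusted p = 3.1e-08). Slc16a3, the lactate exporter MCT4, had 629, 780.0 and 638 CPM in CM and 39.8 and 30.2 CPM in DMEM (4.28 ± 0.26, adjusted p = 1.8e-08). In both genes every CM sample stood far above both DMEM samples. Hk2, a hexokinase that traps glucose in the cell, had 409, 498 and 408 CPM in CM and 32.3 and 30.4 CPM in DMEM (3.81 ± 0.24). Slc2a1, the glucose carrier GLUT1, had 827, 1074 and 755 CPM in CM and 89.0 and 50.9 CPM in DMEM (3.66 ± 0.27). Ldha, which turns pyruvate into lactate, had 1077, 1255 and 1121 CPM in CM and 284 and 271 CPM in DMEM (2.05 ± 0.12, adjusted p = 1.3e-08), again with every CM sample higher.

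Other members of the same families fell. Slc2a3, the carrier GLUT3, had 8.68, 7.43 and 4.52 CPM in CM and 17.4 and 23.6 CPM in DMEM (-1.58 ± 0.20, adjusted p = 1.3e-05). Per kilobase of annotated gene length, the mean level of Slc2a1 was 19.95 CPM in DMEM and 252 CPM in CM, and that of Slc2a3 2.83 and 0.949 CPM. GLUT1 transcripts were the more abundant in both media. Pfkm, the muscle form of phosphofructokinase, fell by 1.39 on the log2 scale, and Pdk2, a kinase that restrains pyruvate dehydrogenase, fell by 1.67, both with no overlap between groups.

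To show the regions that these genes share, the 250 bases before the RefSeq start of Hk2 and Ldha (build GRCm38.p6, transcribed strand, 5′ to 3′) are printed. They are the members with the largest rises among those whose window holds ACGTG, the core letters of the hypoxia response element, outside annotated exons. Capitals mark ACGTG read on either strand, and neighbouring matches can share letters. Hk2 lies at chr6:82774455-82774704 on the minus strand and holds 2 matches, and Ldha at chr7:46845554-46845803 on the plus strand holds 5.
Hk2: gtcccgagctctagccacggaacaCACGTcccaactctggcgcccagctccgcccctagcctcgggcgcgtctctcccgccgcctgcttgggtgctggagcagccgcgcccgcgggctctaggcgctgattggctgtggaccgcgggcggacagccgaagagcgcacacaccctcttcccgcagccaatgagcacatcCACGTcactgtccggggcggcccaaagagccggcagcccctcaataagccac
Ldha: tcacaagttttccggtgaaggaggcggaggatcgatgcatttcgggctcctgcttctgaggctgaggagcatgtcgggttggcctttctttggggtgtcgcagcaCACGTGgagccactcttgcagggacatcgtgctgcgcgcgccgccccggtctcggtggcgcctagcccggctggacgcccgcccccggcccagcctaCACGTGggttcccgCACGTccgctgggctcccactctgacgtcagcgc
In windows that run from 250 bases before to 50 after a start, ACGTG was found in 18 of the 29 glycolytic genes with a RefSeq promoter (62.1%), including 12 of the 18 called higher, and in 2754 of 9210 tested genes with one (29.9%). A match is a run of letters and says nothing of binding.

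In the pentose phosphate pathway, which branches from glycolysis, 0 of 9 genes were called higher and 3 lower (0 and 5 under total counts). The oxidative genes G6pdx and H6pd, whose enzymes make NADPH, were among those that fell. G6pdx had 272, 205 and 209 CPM in CM and 451 and 347 CPM in DMEM (-0.80 ± 0.19, adjusted p = 0.0018). Genes of the citrate cycle split, with 4 of 27 higher and 3 lower, and under total counts 1 was higher and 10 lower. Acod1, which diverts cis-aconitate to itaconate, had 2318, 3413 and 2227 CPM in CM and 203 and 43.0 CPM in DMEM (4.43 ± 0.51, adjusted p = 5.6e-06), with DMEM samples whose ratio to each other was wider than that of any pair of CM samples. Idh1, the cytosolic isocitrate dehydrogenase, had 48.8, 45.5 and 38.8 CPM in CM and 347 and 293 CPM in DMEM (-2.85 ± 0.18, adjusted p = 2.1e-08), and all CM samples lay far below both DMEM samples.

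Respiratory chain genes changed little. Of 72 subunits of the complexes 5 were called higher and 0 lower, and their log2 fold changes lay between -0.52 and 1.0, with a median of 0.14 that turned to -0.17 (2 higher, 13 lower) under total counts. Ndufs1 of complex I had 60.8, 68.1 and 63.7 CPM in CM and 62.6 and 67.9 CPM in DMEM, with overlap between the groups. Atp5b of the ATP synthase had 542, 559 and 552 CPM in CM and 445 and 411 CPM in DMEM (0.37 ± 0.07), a small difference with no overlap that did not reach the fold threshold. Cycs, the electron carrier cytochrome c, had 45.7, 50.8 and 44.5 CPM in CM and 25.3 and 23.9 CPM in DMEM and was called higher (0.93 ± 0.09).

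**Figure D2:**
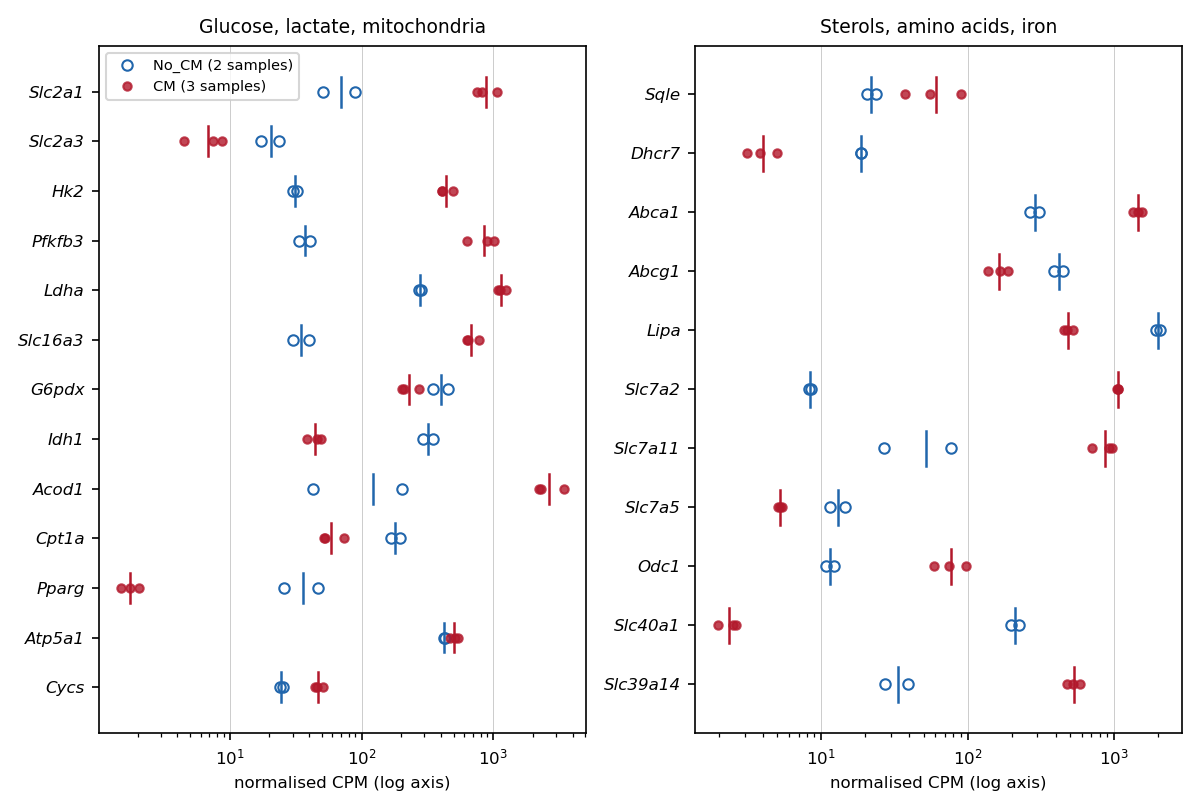
Normalised CPM (log axis) of 24 metabolic genes in each of the 3 CM samples (filled red) and 2 No_CM samples (open blue), with a vertical bar at each group mean. Slc2a1, Hk2, Pfkfb3, Ldha and Slc16a3 sit far to the right in CM, Idh1, Pparg and Slc40a1 far to the left, and the ATP synthase gene Atp5a1 hardly moves.

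Of 26 genes for cholesterol synthesis and uptake 15 were called higher and 1 lower (median 0.99), against 9 and 2 under total counts. Idi1, an isomerase of the early pathway, had 17.5, 23.4 and 9.41 CPM in CM and 4.73 and 5.03 CPM in DMEM (1.79 ± 0.50, adjusted p = 0.0071), a call lost without No_CM_1. Sqle, the squalene epoxidase, had 55.0, 90.2 and 37.2 CPM in CM and 20.4 and 23.6 CPM in DMEM (1.47 ± 0.45, adjusted p = 0.012). In both genes CM_3 was the lowest and CM_2 the highest CM sample, and all CM samples lay above both DMEM samples. Sqle missed a call without CM_2 or without No_CM_1. Dhcr7, which catalyses the last step to cholesterol, went the other way with 3.84, 5.02 and 3.14 CPM in CM and 18.6 and 18.7 CPM in DMEM (-2.21 ± 0.20, adjusted p = 6.0e-07).

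The sterol exporters parted. Abca1, which loads cholesterol onto lipid-poor apolipoprotein, had 1559, 1464 and 1351 CPM in CM and 266 and 308 CPM in DMEM (2.34 ± 0.11, adjusted p = 2.4e-09). Abcg1, which loads mature particles, had 167, 137 and 188 CPM in CM and 391 and 445 CPM in DMEM (-1.35 ± 0.17, adjusted p = 9.6e-06). Lipa, the lysosomal lipase that frees cholesterol from its esters, had 523, 475 and 452 CPM in CM and 2057 and 1937 CPM in DMEM (-2.05 ± 0.18). Apoe, the main apolipoprotein of macrophages, was abundant at 8150.0, 6634 and 8679.6 CPM in CM and 7949 and 6473 CPM in DMEM and the groups overlapped. In all, 2 of the 13 genes listed for cholesterol efflux were called higher and 6 lower (1 and 6 under total counts). The 6 include Soat1, whose product esterifies cholesterol for storage and not for export.

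Fatty acid oxidation genes fell in part. Of 28 genes 0 were called higher and 11 lower (median -0.43), with 0 and 18 under total counts. Pparg, the nuclear receptor that drives lipid uptake and oxidation in macrophages, had 1.502, 1.75 and 2.04 CPM in CM and 25.7 and 46.5 CPM in DMEM (-4.34 ± 0.28, adjusted p = 3.4e-08). Cpt1a, which admits long chains to the mitochondrion, had 52.5, 51.8 and 73.3 CPM in CM and 167 and 195 CPM in DMEM (-1.61 ± 0.18), and all CM samples lay below both DMEM samples. Acadm, the medium-chain dehydrogenase, had 50.9, 47.3 and 49.8 CPM in CM and 57.0 and 55.5 CPM in DMEM and was not called (adjusted p = 0.052). Among 15 genes of fatty acid synthesis 3 were higher and 4 lower. The desaturase Scd2 had 234, 288 and 118 CPM in CM and 33.2 and 32.9 CPM in DMEM (2.69 ± 0.58, adjusted p = 0.0012). Fasn, the fatty acid synthase, had 109, 109.5 and 85.3 CPM in CM and 86.2 and 83.9 CPM in DMEM, with overlap and an adjusted p of 0.22.

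Of 32 genes of nucleotide synthesis 7 were called higher and 10 lower, close to the shares of all genes, and of 19 of serine and one-carbon metabolism 2 and 8. Under total counts these were 4 and 18, and 1 and 11. The largest rise was that of Uck2, a kinase that salvages uridine and cytidine, with 256, 289 and 229 CPM in CM and 20.3 and 16.9 CPM in DMEM (3.79 ± 0.23, adjusted p = 2.2e-08). The folate enzyme Mthfd1 had 8.18, 6.69 and 8.68 CPM in CM and 21.3 and 22.5 CPM in DMEM (-1.49 ± 0.15). Phgdh and Mthfd2, which open serine synthesis and the mitochondrial folate cycle, had overlapping groups and adjusted p-values of 0.51 and 0.37.

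Of 17 genes of arginine and polyamine metabolism 8 were called higher and 1 lower (7 and 4 under total counts). Slc7a2, the inducible carrier of arginine and lysine, had 1067, 1053 and 1060.2 CPM in CM and 8.54 and 8.23 CPM in DMEM (6.98 ± 0.16, adjusted p = 4.8e-12), with both groups nearly constant across samples. Arg1, the arginase that competes with nitric oxide synthesis, had 17.1, 54.1 and 22.2 CPM in CM and 0.0296 and 0 CPM in DMEM, which is at least 254-fold higher (adjusted p = 1.7e-04). Nos2, the inducible nitric oxide synthase, had 216, 125 and 185 CPM in CM and 0.473 and 0.164 CPM in DMEM (8.99 ± 0.95, adjusted p = 6.3e-06). Arg1 was at the limit of detection in DMEM and Nos2 close to it, and both were well detected in every CM sample. Odc1, which starts polyamine synthesis, rose with 58.9, 98.0 and 74.7 CPM in CM and 12.3 and 10.7 CPM in DMEM (2.75 ± 0.23). Per kilobase of gene length Arg2, the mitochondrial arginase, was the more abundant arginase in CM at 227 CPM, against 13.98 CPM for Arg1.

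Of 24 amino acid carriers 6 were called higher and 7 lower (4 and 9 under total counts), close to the shares of all genes. Slc7a11, the cystine importer, had 962, 712 and 924 CPM in CM and 76.5 and 27.01 CPM in DMEM (4.06 ± 0.43, adjusted p = 2.5e-06). Slc7a5, the carrier of large neutral amino acids, had 5.06, 5.38 and 5.25 CPM in CM and 14.5 and 11.5 CPM in DMEM (-1.32 ± 0.17, adjusted p = 1.4e-05). Slc43a2, another carrier of such amino acids, had 152, 163 and 197 CPM in CM and 554 and 602 CPM in DMEM (-1.76 ± 0.12). In each of these genes the groups lay apart, although the DMEM samples of Slc7a11 differed from each other.

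Among iron genes an exporter fell and an importer of non-transferrin iron rose. Slc40a1, the only known cellular iron exporter, ferroportin, had 2.50, 1.96 and 2.61 CPM in CM and 198 and 224 CPM in DMEM (-6.50 ± 0.38, adjusted p = 1.3e-08), the largest fall of any listed gene. Slc39a14, the metal importer ZIP14, had 527, 583 and 481 CPM in CM and 39.2 and 27.3 CPM in DMEM (3.99 ± 0.21, adjusted p = 5.0e-09). Tfrc, the transferrin receptor, fell by 0.93 on the log2 scale with 40.6, 44.4 and 39.96 CPM in CM and 70.6 and 88.5 CPM in DMEM. Hmox1, which breaks down heme, had 317, 291 and 356 CPM in CM and 429.5 and 423 CPM in DMEM, lower in every CM sample but short of the fold threshold (-0.41 ± 0.11). Of the 26 iron and heme genes 7 rose and 9 fell (6 and 14 under total counts).

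Lysosomal genes fell in part. Of 58 genes 5 were called higher and 19 lower (median -0.25), with 2 and 32 under total counts. The heparan sulfate sulfatase gene Sgsh had 23.5, 34.4 and 38.0 CPM in CM and 109 and 176 CPM in DMEM (-2.15 ± 0.23), and Atp6v0a1 of the proton pump had 107, 127 and 132 CPM in CM and 398 and 513 CPM in DMEM (-1.90 ± 0.14). The abundant genes Ctsd, a protease, and Lamp1, a membrane protein, overlapped between the groups. Ctsd had 4885, 5256 and 6246 CPM in CM and 5534 and 5507 CPM in DMEM. Lamp1 had 2078, 2283 and 2512 CPM in CM and 2312 and 2429 CPM in DMEM. Ctsl, another protease, rose with 2082, 3392 and 2943 CPM in CM and 853 and 1058 CPM in DMEM (1.55 ± 0.23, adjusted p = 5.3e-05).

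In the growth program, ribosome assembly factors had small changes, with 19 of 62 called higher and 1 lower at a median of 0.33, and 6 higher and 4 lower under total counts. Ncl, the nucleolar protein nucleolin, had 216, 233 and 247 CPM in CM and 223 and 254 CPM in DMEM, with overlap. The largest rise was that of Rcl1, a cleavage factor for ribosomal RNA, with 47.8, 43.3 and 39.9 CPM in CM and 12.1 and 11.3 CPM in DMEM (1.90 ± 0.11). Of 20 tRNA charging genes 0 were called higher and 1, Vars, lower, and under total counts 11 were called lower. Protein folding in the endoplasmic reticulum had 15 of 30 genes higher and 1 lower (10 and 4 under total counts). Hspa5, the chaperone BiP, had 1994, 2613 and 2235 CPM in CM and 1262 and 1078 CPM in DMEM (0.96 ± 0.14). Ero1l, the oxidase that forms disulfide bonds, had 154, 216 and 157 CPM in CM and 46.8 and 44.6 CPM in DMEM (1.95 ± 0.17). Ddit3, the stress factor CHOP, had 24.5, 26.4 and 28.9 CPM in CM and 32.6 and 32.0 CPM in DMEM and did not pass the fold threshold (-0.28 ± 0.10).

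Genes of DNA replication and mitosis were called lower far more often than higher, under total counts too (39 and 51 lower, 3 and 7 higher), with exceptions among the best known markers. Of 64 replication genes 32 were called lower and 7 higher (median -0.59), and of 80 mitotic genes 37 lower and 10 higher (median -0.81). Mcm6, a subunit of the replicative helicase, had 5.06, 6.03 and 5.50 CPM in CM and 20.4 and 21.5 CPM in DMEM (-1.91 ± 0.14, adjusted p = 9.8e-08). Pcna, the clamp of the replication fork, was lower in every CM sample at 90.3, 112 and 89.8 CPM in CM and 115 and 135 CPM in DMEM but short of the fold threshold (-0.36 ± 0.10). Ccnb1, the mitotic cyclin B1, had 1.502, 1.604 and 1.59 CPM in CM and 3.46 and 4.79 CPM in DMEM (-1.38 ± 0.19, adjusted p = 3.2e-05). The condensin genes Ncapg2 and Ncapd3 fell by 1.71 and 1.42 on the log2 scale.

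Other members of the mitosis list rose. Mki67, the gene of the proliferation marker Ki-67, had 184, 149 and 196 CPM in CM and 20.5 and 19.7 CPM in DMEM (3.13 ± 0.22, adjusted p = 6.0e-08), with no overlap between groups. Cdk1, the kinase that cyclin B1 activates, had 9.79, 15.9 and 8.92 CPM in CM and 6.41 and 6.63 CPM in DMEM and was called higher (0.83 ± 0.30), a call that was lost under total counts, without CM_2 and without either DMEM sample. Lmnb1, a lamin, and Tubb5, a tubulin used in all phases, rose by 2.96 and 1.5. The summed level of the mitosis list was higher in CM (1269 to 1404 CPM) than in DMEM (796 and 801 CPM), opposite in sign to its median, with Tubb5 alone at 565, 629.7 and 715 CPM in CM and 228 and 224 CPM in DMEM.

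To show the promoter letters of falling mitotic genes, the 250 bases before the start of Kif11 (chr19:37376132-37376381, plus strand), a spindle motor, and of Ckap2 (chr8:22185820-22186069, minus strand), a spindle protein, are printed from RefSeq on GRCm38.p6. They had the largest falls among called members whose window held TTTGAA and touched no annotated exon. The chromosome left out of the choice of glycolytic genes was left out here too. Capitals mark TTTGAA, the letters of the cell cycle genes homology region, read on either strand, with 1 match in each.
Kif11: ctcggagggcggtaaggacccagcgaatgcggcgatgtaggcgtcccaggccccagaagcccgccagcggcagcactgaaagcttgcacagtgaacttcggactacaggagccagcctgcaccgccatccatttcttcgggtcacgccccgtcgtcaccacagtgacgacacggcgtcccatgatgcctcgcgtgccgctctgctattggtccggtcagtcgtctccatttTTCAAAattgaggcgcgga
Ckap2: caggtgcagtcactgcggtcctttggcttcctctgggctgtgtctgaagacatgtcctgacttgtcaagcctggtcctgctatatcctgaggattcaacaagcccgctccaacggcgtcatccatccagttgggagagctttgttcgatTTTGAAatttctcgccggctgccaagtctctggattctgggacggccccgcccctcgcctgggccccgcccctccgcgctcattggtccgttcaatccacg
In the windows from 250 bases before to 50 after the start, these letters were found in 45 of 68 mitotic genes with a promoter (66.2%), 21 of them among the 32 called lower, and in 1314 of 9210 tested genes (14.3%). Kif11 had 0.779, 0.921 and 0.529 CPM in CM and 3.22 and 4.30 CPM in DMEM. Ckap2 had 0.612, 0.743 and 0.407 CPM in CM and 2.36 and 1.96 CPM in DMEM. Both were lower in every CM sample.

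Of the D-type cyclins, which carry growth factor signals into G1, 1 fell, 1 rose and 1 was not called. Ccnd1 had 3.95, 8.53 and 4.32 CPM in CM and 46.9 and 60.5 CPM in DMEM (-3.22 ± 0.46, adjusted p = 4.0e-05). Ccnd2 had 111, 203 and 111 CPM in CM and 13.03 and 10.6 CPM in DMEM (3.58 ± 0.49, adjusted p = 2.7e-05). Ccnd3 had 37.9, 56.1 and 37.0 CPM in CM and 43.0 and 36.7 CPM in DMEM, with overlap (adjusted p = 0.68). Per kilobase of gene length, Ccnd1 averaged 11.4 CPM in DMEM and 1.19 CPM in CM, and Ccnd2 1.25 and 15.0 CPM, so the order of these genes was reversed. Myc, which promotes growth and entry into the cycle, had 32.7, 41.0 and 43.2 CPM in CM and 12.9 and 14.1 CPM in DMEM (1.54 ± 0.25). Ccne1, the cyclin of the G1 to S step, had 6.01, 7.22 and 6.19 CPM in CM and 2.28 and 2.41 CPM in DMEM (1.47 ± 0.23).

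Inhibitors of the cycle were about as often higher (13 of 33) as lower (12), with 8 and 14 under total counts. Cdkn1a, the kinase inhibitor p21, had 1068, 1366 and 1018 CPM in CM and 358 and 231 CPM in DMEM (1.96 ± 0.20, adjusted p = 2.0e-06). Gadd45b, a growth arrest gene, had 140.0, 173 and 166 CPM in CM and 19.0 and 13.7 CPM in DMEM (3.28 ± 0.20). The repressors that compete with MYC for its partner MAX parted, with a rise of Mxi1 and a fall of Mxd4. Mxi1 had 168, 307 and 149.8 CPM in CM and 24.0 and 22.5 CPM in DMEM (3.16 ± 0.45). Mxd4 had 15.4, 12.2 and 15.6 CPM in CM and 112 and 157 CPM in DMEM (-3.23 ± 0.17, adjusted p = 4.2e-09). The checkpoint kinase gene Atm fell by 1.83 and Plk2, a polo-like kinase, by 1.71 on the log2 scale. The median of this list was 0.31 and turned to -0.01 under total counts.

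**Figure D3:**
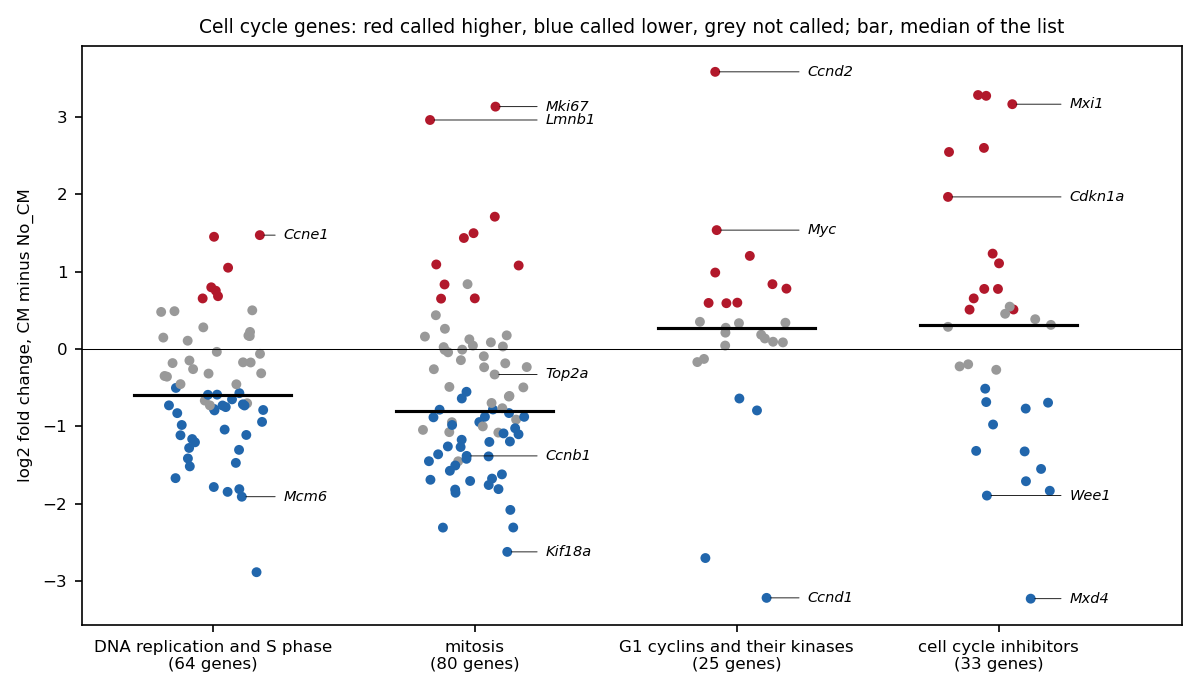
Log2 fold change (CM minus No_CM, vertical axis) of each tested gene of 4 cell cycle lists, with red points called higher, blue lower and grey not called, and a bar at the median of the list. Most points of replication and mitosis lie below 0 (medians -0.59 and -0.81) while Mki67 and Lmnb1 stand near 3, and Ccnd1 and Ccnd2 lie at opposite ends of the G1 list. That list also holds cyclins and kinases of transcription. Of these Ccnc, Cdk8, Ccnl2 and Ccnt1 were called higher, and Cdk9, Cdk12, Cdk13, Ccnk, Ccnl1 and Ccnt2 were not called.

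Receptors for growth factors rose and fell, with 13 of 40 called higher and 8 lower (8 and 14 under total counts). Csf1r, the receptor that keeps macrophages alive, had 2307, 2435 and 2253 CPM in CM and 3521 and 3599 CPM in DMEM (-0.61 ± 0.10, adjusted p = 1.3e-04). Csf2rb, the shared chain of the GM-CSF, IL-3 and IL-5 receptors, had 2545, 2963 and 2489 CPM in CM and 321 and 294 CPM in DMEM (3.12 ± 0.15, adjusted p = 2.7e-09). Every CM sample thus held less RNA of the first and far more of the second, and per kilobase of gene length their means were 404 and 366 CPM in CM against 617 and 42.2 CPM in DMEM. Met, the receptor of hepatocyte growth factor, had 13.3, 15.0 and 24.4 CPM in CM and 1.005 and 1.35 CPM in DMEM (3.92 ± 0.37). Notch1, a receptor for ligands on neighbouring cells, had 289, 258 and 264 CPM in CM and 49.4 and 45.3 CPM in DMEM (2.51 ± 0.15). Nrp1, the semaphorin and VEGF coreceptor neuropilin-1, had 24.4, 31.5 and 28.5 CPM in CM and 161 and 195 CPM in DMEM (-2.66 ± 0.13).

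Cytokine receptors rose more often than they fell, with 21 of 46 higher and 7 lower (median 0.54). Tnfrsf9, the costimulatory receptor 4-1BB, had 111, 165 and 98.5 CPM in CM and 0.177 and 0.205 CPM in DMEM (9.34 ± 0.94, adjusted p = 1.6e-06). Il4ra, the chain shared by the IL-4 and IL-13 receptors, had 871, 1220.0 and 799.9 CPM in CM and 40.2 and 51.9 CPM in DMEM (4.39 ± 0.34), and the decoy receptor gene Il1r2 had 0.890, 1.16 and 0.652 CPM in CM and 0.177 and 0.123 CPM in DMEM (2.54 ± 0.55). Il2ra, the high affinity chain for IL-2, had 10.1, 9.15 and 12.3 CPM in CM and 0 and 0.123 CPM in DMEM, at least 85.7-fold higher. All of these were higher in each CM sample than in either DMEM sample. Lifr, the receptor of leukemia inhibitory factor, went down with 3.84, 4.49 and 2.97 CPM in CM and 15.6 and 18.4 CPM in DMEM (-2.16 ± 0.18). Ifngr1, a chain of the interferon gamma receptor, fell to a lesser extent with 76.3, 94.3 and 83.3 CPM in CM and 154 and 129.7 CPM in DMEM (-0.75 ± 0.12). Il10ra, the receptor that restrains macrophages, had 278, 336 and 286 CPM in CM and 270.0 and 234 CPM in DMEM and was not called (adjusted p = 0.11).

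Chemokine and chemoattractant receptors moved in both directions. Ccr1, a receptor for inflammatory CC chemokines, had 98.8, 178 and 153 CPM in CM and 1.83 and 4.38 CPM in DMEM (5.58 ± 0.63, adjusted p = 4.2e-06). Cxcr4, which holds cells in the bone marrow, had 98.3, 65.9 and 90.5 CPM in CM and 396 and 351 CPM in DMEM (-2.14 ± 0.20, adjusted p = 7.4e-07). Cx3cr1, the fractalkine receptor of resident macrophages, had 46.8, 54.2 and 21.7 CPM in CM and 134 and 112 CPM in DMEM (-1.59 ± 0.41). Ccr2, which brings monocytes to inflamed tissue, had 29.3, 20.3 and 16.6 CPM in CM and 36.1 and 34.4 CPM in DMEM (-0.68 ± 0.25, adjusted p = 0.028), and it missed a call when CM_2, CM_3 or either DMEM sample was left out. C5ar1, the receptor of complement C5a, overlapped between the groups at 237, 409.9 and 278 CPM in CM and 250.4 and 231 CPM in DMEM. Of 20 genes 8 were called higher and 5 lower.

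Among 45 genes listed as other G protein-coupled receptors 20 were called higher and 14 lower (16 and 17 under total counts). The 14 include P2rx4 and P2rx7, which encode ion channels and not G protein-coupled receptors. The adenosine receptor genes Adora2b and Adora2a, which raise cyclic AMP, rose. Adora2b had 251, 271 and 212 CPM in CM and 2.66 and 2.74 CPM in DMEM (6.50 ± 0.30, adjusted p = 1.9e-09). Adora2a had 43.1, 48.8 and 50.5 CPM in CM and 2.39 and 0.327 CPM in DMEM (5.01 ± 0.39). P2ry1, a receptor of ADP, had 1.11, 1.34 and 2.57 CPM in CM and 22.8 and 28.2 CPM in DMEM (-3.92 ± 0.29). Lpar5, a receptor of lysophosphatidic acid, had 1.61, 0.802 and 1.43 CPM in CM and 15.2 and 22.9 CPM in DMEM (-3.94 ± 0.33), while Lpar1, another, rose by 2.45 on the log2 scale. In none of these genes did the groups overlap. Hcar2, which senses hydroxybutyrate and niacin, had 239, 343 and 241 CPM in CM and 23.2 and 13.5 CPM in DMEM (3.89 ± 0.34). Gpr35 had 56.4, 85.5 and 50.3 CPM in CM and 0.739 and 0.860 CPM in DMEM (6.33 ± 0.50). The prostaglandin E2 receptor gene Ptger4 had 39.6, 31.2 and 53.8 CPM in CM and 62.5 and 66.9 CPM in DMEM and was not called (adjusted p = 0.059).

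Pattern recognition receptors also moved in both directions. Cd14, the coreceptor for lipopolysaccharide, had 12428, 15920.2 and 12334 CPM in CM and 2528 and 1698 CPM in DMEM (2.68 ± 0.24, adjusted p = 6.0e-07). Tlr2, a surface receptor for bacterial lipopeptides, had 1705, 2316 and 2087 CPM in CM and 384 and 300.4 CPM in DMEM (2.57 ± 0.20). The endosomal nucleic acid sensors Tlr9 and Tlr13 were lower in every CM sample. Tlr9 had 11.9, 12.6 and 8.51 CPM in CM and 60.9 and 89.1 CPM in DMEM (-2.77 ± 0.24). Tlr13 had 104, 76.4 and 119 CPM in CM and 463 and 541 CPM in DMEM (-2.33 ± 0.19). Tlr4, the signalling partner of CD14, had 267, 234 and 215 CPM in CM and 215 and 231 CPM in DMEM and the groups overlapped. Cd180, a TLR4 relative, fell with 30.6, 33.1 and 36.8 CPM in CM and 199 and 269 CPM in DMEM (-2.80 ± 0.19). Of these 27 genes, 7 were higher and 10 lower by the criteria (5 and 14 under total counts).

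Among Fc and paired receptors 14 of 51 were higher and 21 lower. Trem1, an amplifier of inflammation, had 120.0, 245 and 115 CPM in CM and 0.916 and 0.246 CPM in DMEM (7.99 ± 0.69, adjusted p = 3.8e-07). Trem2, the lipid-sensing relative, had 527, 602 and 573 CPM in CM and 713 and 786 CPM in DMEM and stayed within the fold threshold (-0.40 ± 0.09). Fcgr2b, the inhibitory Fc gamma receptor, had 625, 763 and 773 CPM in CM and 59.2 and 63.8 CPM in DMEM (3.55 ± 0.38). Lair1, an inhibitory collagen receptor, had 14.8, 21.2 and 15.8 CPM in CM and 108 and 129 CPM in DMEM (-2.77 ± 0.17). Cd84, an adhesion receptor of the SLAM family, fell by 1.78 on the log2 scale. Fcgr1, the high affinity Fc receptor, had 130.1, 232 and 103 CPM in CM and 76.1 and 128 CPM in DMEM and overlapped.

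Of 27 scavenger and clearance receptors 6 were called higher and 8 lower (5 and 11 under total counts), close to the shares of all genes. Olr1, the receptor LOX-1, had 110.2, 138 and 112 CPM in CM and 0.502 and 0.286 CPM in DMEM (8.18 ± 0.38, adjusted p = 1.9e-09). Msr1, the class A receptor, had 1604, 1601 and 1697 CPM in CM and 322 and 280.3 CPM in DMEM (2.44 ± 0.15). Cd36 had 514, 609 and 279.8 CPM in CM and 480.1 and 450.2 CPM in DMEM. Mrc1, the mannose receptor, had 133, 211 and 86.3 CPM in CM and 72.1 and 119 CPM in DMEM. Both overlapped between the groups.

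Of 30 genes of antigen presentation and costimulation 14 were called higher and 2 lower. Cd274, the checkpoint ligand PD-L1, had 905, 1009.9 and 849.7 CPM in CM and 24.8 and 32.5 CPM in DMEM (5.01 ± 0.28, adjusted p = 9.4e-09). Cd80 and Cd86, which costimulate T cells, were among the higher genes. Cd80 had 67.7, 122 and 75.3 CPM in CM and 5.08 and 6.34 CPM in DMEM (3.96 ± 0.42). Cd86 had 79.3, 116 and 65.3 CPM in CM and 14.2 and 16.9 CPM in DMEM (2.49 ± 0.31). H2-Ab1, a class II chain, had 44.5, 58.8 and 46.4 CPM in CM and 28.5 and 30.5 CPM in DMEM (0.76 ± 0.21, adjusted p = 0.0060), a call that was lost under total counts, and H2-M3, a class I relative that presents formyl peptides, fell by 0.90 on the log2 scale.

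Adhesion molecules had 25 of 42 genes higher and 6 lower (median 0.67). Plaur, the urokinase receptor, had 448, 781 and 444 CPM in CM and 18.3 and 20.01 CPM in DMEM (4.87 ± 0.43, adjusted p = 5.1e-07). Cd44, the hyaluronan receptor, had 1349, 1992 and 1594 CPM in CM and 338 and 412 CPM in DMEM (2.13 ± 0.21). The integrin chain genes Itga6 and Itga4 fell by 2.12 and 1.13, and Itgam, the chain of CD11b, rose by 0.99. Itgax, the chain of CD11c, overlapped between the groups at 37.4, 26.2 and 35.9 CPM in CM and 29.3 and 21.7 CPM in DMEM.

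**Figure D4:**
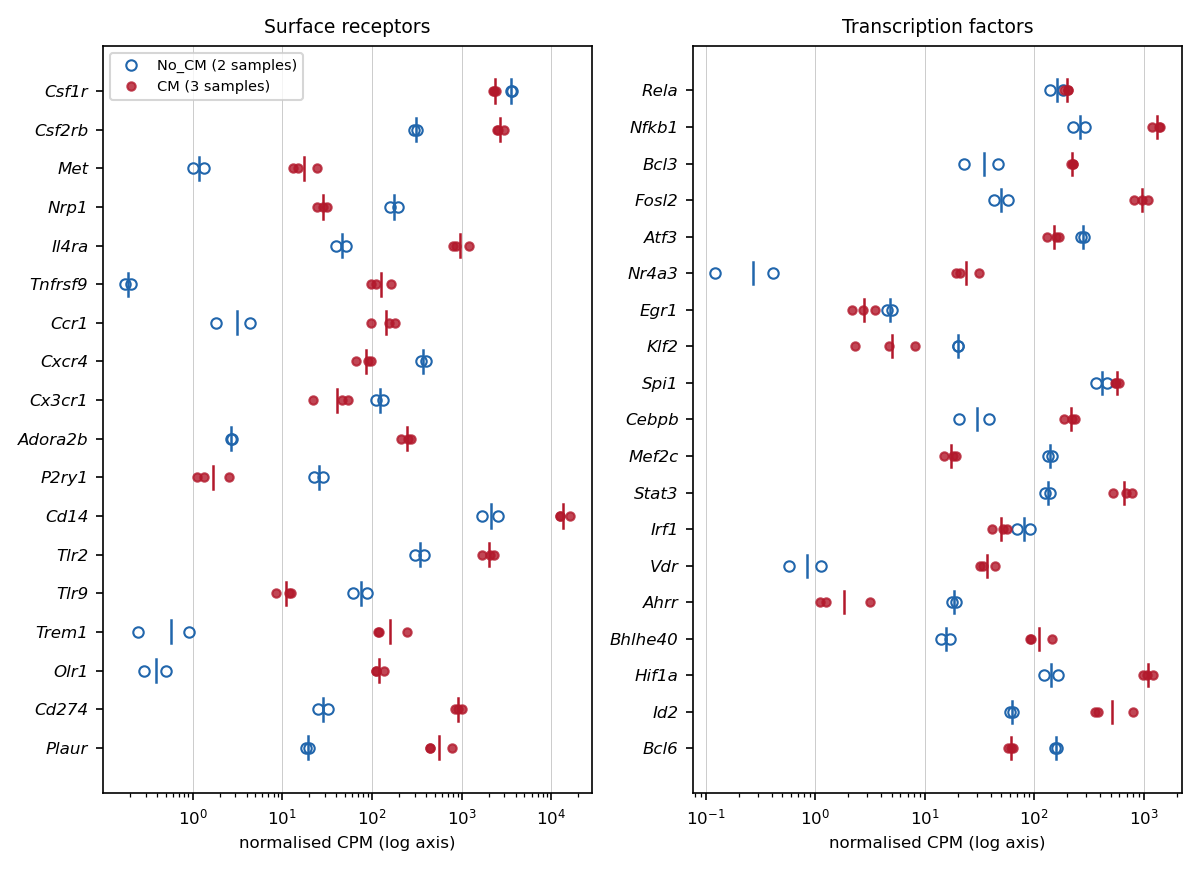
Normalised CPM (log axis) of 18 surface receptor genes (left panel) and 19 transcription factor genes (right panel) in each CM sample (filled red) and No_CM sample (open blue), with a bar at each group mean. Tnfrsf9, Trem1 and Olr1 move from below 1 CPM to about 100 CPM or more, and Rela and Spi1 move least among the factors shown.

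Of the transcription factors, NF-κB genes rose as a near complete list. Of 11 subunits and inhibitors 10 were called higher and 0 lower (median 1.76). Nfkb1, the precursor of p50, had 1388, 1405 and 1199.7 CPM in CM and 293 and 226 CPM in DMEM (2.36 ± 0.14, adjusted p = 1.2e-08). The inhibitor gene Nfkbia, whose product IκBα holds NF-κB in the cytoplasm, had 819.6, 1049.9 and 830.1 CPM in CM and 176 and 118 CPM in DMEM (2.61 ± 0.21). Bcl3, a nuclear IκB protein, had 228, 225 and 216 CPM in CM and 47.0 and 23.002 CPM in DMEM (2.66 ± 0.21). Rela, the gene of p65, was the member not called, at 204, 187 and 204 CPM in CM and 183 and 139.8 CPM in DMEM, short of the fold threshold (0.30 ± 0.11, adjusted p = 0.027).

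AP-1 and ATF genes had 14 of 26 higher and 2 lower. Fosl2, a FOS family member, had 973, 1089 and 822 CPM in CM and 57.5 and 42.9 CPM in DMEM (4.26 ± 0.30, adjusted p = 6.5e-08). Maff, a small MAF protein without an activation domain, had 49.1, 67.7 and 56.4 CPM in CM and 3.37 and 1.76 CPM in DMEM (4.46 ± 0.35). Junb, a dimer partner of FOS proteins, rose by 2.23. Atf3, a stress-induced repressor, fell with 158, 131 and 168 CPM in CM and 269 and 288 CPM in DMEM (-0.87 ± 0.20, adjusted p = 0.0015). Among immediate-early genes the orphan receptors Nr4a3 and Nr4a1 rose from low levels. Nr4a3 had 21.0, 31.2 and 19.3 CPM in CM and 0.414 and 0.123 CPM in DMEM (6.35 ± 0.45). Nr4a1 had 56.9, 62.6 and 63.3 CPM in CM and 9.75 and 4.22 CPM in DMEM (3.10 ± 0.49). Egr1, a growth-induced factor, was lower in CM with 2.17, 2.73 and 3.54 CPM in CM and 4.58 and 5.08 CPM in DMEM (-0.76 ± 0.23, adjusted p = 0.010), a call lost without No_CM_2. RNA was taken at a single time, so earlier peaks were not measured.

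Lineage factors moved both ways or were not called. Spi1, the gene of PU.1, had 596, 549 and 559 CPM in CM and 465 and 366 CPM in DMEM, higher in each CM sample but within the fold threshold (0.45 ± 0.09). Maf, which holds macrophages out of the cycle, had 208, 265 and 239 CPM in CM and 218 and 371 CPM in DMEM, with overlap, and was not called (adjusted p = 0.27). Cebpb, a factor of inflammatory genes, had 223, 236 and 188 CPM in CM and 39.0 and 20.8 CPM in DMEM (2.84 ± 0.24, adjusted p = 3.1e-07). Mef2c had 19.2, 15.2 and 18.2 CPM in CM and 134 and 145 CPM in DMEM (-3.0 ± 0.11, adjusted p = 8.8e-10), and Lmo2 and Lyl1, partners in blood progenitor complexes, fell by 2.34 and 1.92 on the log2 scale. Counts in this list were 11 higher and 10 lower of 42 (8 and 14 under total counts).

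Of 15 STAT and IRF genes 5 were called higher and 1 lower (median 0.06), with 4 and 5 under total counts. Stat3, which transmits IL-6 family signals, had 696, 777 and 529.8 CPM in CM and 141 and 126 CPM in DMEM (2.32 ± 0.21, adjusted p = 6.7e-07), and Stat5a and Stat4 rose by 1.99 and 2.59. Irf1, an interferon response factor, was lower in CM at 41.2, 52.4 and 57.1 CPM in CM and 92.4 and 70.4 CPM in DMEM (-0.70 ± 0.24, adjusted p = 0.022), a call lost without CM_1 or No_CM_1. Irf8, which specifies monocytes, had 267, 297 and 282 CPM in CM and 187 and 195 CPM in DMEM (0.56 ± 0.11), a rise that passed the fold threshold narrowly and was not called under total counts.

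Of 23 nuclear receptors 8 were called higher and 8 lower (7 and 12 under total counts), and of 14 clock genes 7 and 5. Vdr, the vitamin D receptor, had 32.4, 44.2 and 34.3 CPM in CM and 1.12 and 0.573 CPM in DMEM (5.39 ± 0.53, adjusted p = 1.3e-06). Ahr, the aryl hydrocarbon receptor, had 75.0, 73.2 and 58.1 CPM in CM and 5.73 and 6.38 CPM in DMEM (3.51 ± 0.26). Ahrr, its repressor, had 1.11, 1.25 and 3.18 CPM in CM and 19.2 and 17.7 CPM in DMEM (-3.31 ± 0.34). Nr1h3, the sterol sensor LXRα, had 13.3, 12.6 and 18.6 CPM in CM and 27.9 and 26.3 CPM in DMEM (-0.87 ± 0.22). In the clock, the repressor genes Nfil3 and Bhlhe40 rose in every CM sample. Nfil3 had 301, 348 and 262 CPM in CM and 17.5 and 11.5 CPM in DMEM (4.38 ± 0.35). Bhlhe40 had 90.8, 146 and 93.9 CPM in CM and 13.98 and 17.1 CPM in DMEM (2.83 ± 0.33). Bhlhe41, the paralog of the latter, went the other way and had 24.5, 21.6 and 39.6 CPM in CM and 86.8 and 111 CPM in DMEM (-1.79 ± 0.34). Per1 rose by 1.19 and Per3 fell by 1.24 on the log2 scale.

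Hif1a, the oxygen-regulated factor, had 1069, 1217 and 978 CPM in CM and 164 and 123 CPM in DMEM (2.92 ± 0.13, adjusted p = 1.9e-09), and Nfe2l2, the gene of the oxidant sensor NRF2, rose by 0.87. Of 19 Kruppel-like factor genes 5 were called higher and 5 lower (3 and 8 under total counts), with log2 fold changes from -1.95 to 3.47. Klf2, which keeps myeloid cells quiescent, had 2.34, 8.23 and 4.68 CPM in CM and 20.3 and 20.3 CPM in DMEM (-1.95 ± 0.51, adjusted p = 0.0041). Klf6 overlapped at 399, 369 and 382 CPM in CM and 389.5 and 432 CPM in DMEM. Repressors and inhibitors of differentiation had 17 of 28 genes higher and 5 lower (median 1.0). Id2 and Id3, which block basic helix-loop-helix factors, rose. Id2 had 362, 792 and 386 CPM in CM and 60.3 and 64.6 CPM in DMEM (3.04 ± 0.48). Id3 had 66.5, 120.4 and 76.2 CPM in CM and 9.22 and 3.44 CPM in DMEM (3.76 ± 0.43). Zeb1, a zinc finger repressor, had 29.7, 36.9 and 33.4 CPM in CM and 1.42 and 1.88 CPM in DMEM (4.35 ± 0.27). Bcl6, which restrains inflammatory genes, had 64.4, 61.9 and 57.7 CPM in CM and 155 and 160.3 CPM in DMEM (-1.36 ± 0.16, adjusted p = 6.1e-06). Genes with a numbered Zfp symbol, most of which encode zinc finger proteins, had 31 of 299 higher and 97 lower (median -0.28), and 21 and 165 under total counts.

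Outside the cytokine families, and where the 5 samples averaged 20 CPM or more, the largest called rise was that of Cish, a STAT5-induced feedback inhibitor, with 136, 147 and 122 CPM in CM and 0.148 and 0.123 CPM in DMEM (9.90 ± 0.52, adjusted p = 5.0e-09). Nrg1, the growth factor neuregulin, had 97.1, 124 and 121 CPM in CM and 0.148 and 0.0819 CPM in DMEM (9.84 ± 0.62). Cish and Nrg1 were barely detected in DMEM. Ptgs2, the inducible cyclooxygenase, had 3329.6, 3979 and 2511 CPM in CM and 10.1 and 6.02 CPM in DMEM (8.65 ± 0.47). Hdc, which makes histamine, had 61.3, 76.3 and 49.4 CPM in CM and 0.266 and 0.205 CPM in DMEM (8.00 ± 0.85). Cd38, an enzyme that consumes NAD, had 43.5, 37.9 and 52.3 CPM in CM and 0.236 and 0.0409 CPM in DMEM (8.14 ± 0.44). In each of these genes the CM samples stood far above both DMEM samples. Socs3, a feedback inhibitor of STAT3 signalling, had 1914, 2598 and 1837 CPM in CM and 17.3 and 5.20 CPM in DMEM (7.54 ± 0.60). The largest falls after Slc40a1 were those of Rasgrp3, an activator of RAS, and of Ldlrad3. Rasgrp3 had 1.72, 2.02 and 1.30 CPM in CM and 83.9 and 144 CPM in DMEM (-6.06 ± 0.24, adjusted p = 1.0e-09). Ldlrad3 had 1.61, 1.28 and 1.67 CPM in CM and 57.6 and 61.1 CPM in DMEM (-5.31 ± 0.25). Both were low and even within CM. Sesn1, a sestrin that restrains growth signalling, had 6.01, 5.73 and 7.21 CPM in CM and 91.8 and 171 CPM in DMEM (-4.38 ± 0.26). Cd28 had 5.17, 7.58 and 8.23 CPM in CM and 80.2 and 182 CPM in DMEM (-4.21 ± 0.30), with DMEM samples far apart. The potassium channel gene Kcnj2 had 25.4, 15.2 and 21.5 CPM in CM and 327 and 260.3 CPM in DMEM (-3.83 ± 0.31).

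The same contrast was available in other samples, with the JAK1 and JAK2 inhibitor ruxolitinib in both media. Here 3 samples titled CM_Rux_4h, with 0.5 μM ruxolitinib, stood against 3 titled No_CM_Rux, whose labels give no concentration. These 6 samples also entered the filter on low counts, the RLE factors and the estimate of spread of the comparison above, but not its group means. With ruxolitinib 2761 genes (22.3%) were higher and 3096 (25.0%) lower in CM. Of the 2584 genes higher without ruxolitinib 2233 (86.4%) were called higher with it, which is 80.9% of its own calls, and of the 2980 lower genes 2599 (87.2%) were called lower, 83.9% of its calls. Among the 1247 listed genes the log2 fold changes of the contrasts had a Pearson correlation of 0.94 across genes, given as a description since genes are not independent replicates. Glycolysis had 18 of 30 genes higher with ruxolitinib, cholesterol synthesis 19 of 26, replication 30 of 64 lower and mitosis 38 of 80 lower. Hk2 changed by 3.76, Slc40a1 by -5.47, Mki67 by 3.85, Ccnd1 by -3.97, Csf2rb by 2.73 and Hif1a by 3.15 on the log2 scale, each called in the same direction as without it.

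The difference between the contrasts was tested directly, and 22 genes (0.178%) had a response that was higher without ruxolitinib and 29 (0.234%) one that was lower. With the replicate number as a block over all 16 samples, these counts were 197 and 247. That block pairs same-numbered samples of every group, CM and DMEM among them. The counts depended on single samples too. Without the block they were 5 to 34 and 9 to 84 when each of the 11 samples was left out in turn, the fewest without No_CM_1 and without CM_1. Among listed genes 7 were higher and 3 lower. Irf8 had 267, 297 and 282 CPM in CM and 187 and 195 CPM in DMEM, but 137, 143 and 174 CPM in CM and 204, 197 and 204 CPM in DMEM with ruxolitinib, a difference of 0.97 between the log2 fold changes (adjusted p = 0.012). Mertk, a receptor for the uptake of dying cells, had 12.9, 23.6 and 14.5 CPM in CM and 23.5 and 27.3 CPM in DMEM without ruxolitinib, with overlap, and 4.72, 6.25 and 4.58 against 31.0, 26.8 and 32.0 CPM with it, where the CM samples were clearly lower. Timd4 went the other way, with 22.4, 24.4 and 34.5 CPM in CM and 4.20 and 3.23 CPM in DMEM without ruxolitinib and 42.2, 57.3 and 57.6 CPM in CM against 1.57, 2.59 and 2.33 CPM in DMEM with it (difference -1.70, adjusted p = 0.047). Tlr4 overlapped between the media without ruxolitinib and had 127, 117 and 105 CPM in CM against 228, 224 and 174 CPM in DMEM with it (difference 0.94, adjusted p = 0.041). With each sample left out in turn the call was kept in 10 of 11 fits for Irf8, in 3 for Mertk, and in 2 each for Timd4 and Tlr4.

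**Figure D5:**
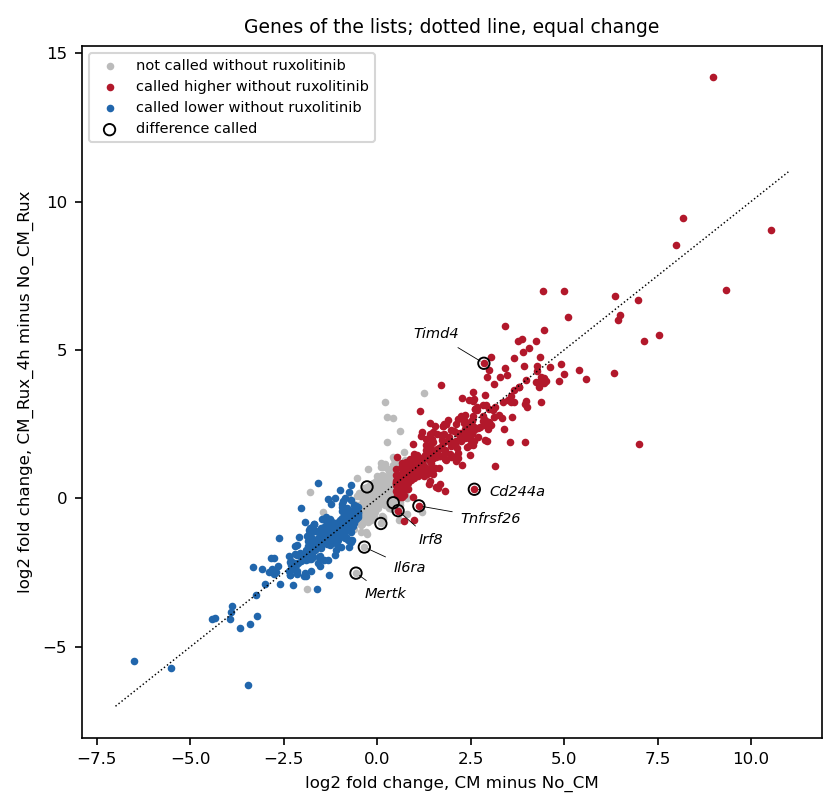
Log2 fold change of the 1247 tested list genes in CM against No_CM (horizontal) and in CM_Rux_4h against No_CM_Rux (vertical), coloured by the call without ruxolitinib. A dotted line marks equal change, and circles mark the genes named in the text whose difference was called. Most genes lie along the line, and Mertk, Il6ra, Timd4 and Cd244a lie away from it.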

How the data were processed

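RNA was sequenced from 16 BMDM samples with stranded TruSeq libraries, and 5 of them make up the comparison of CM with DMEM. The authors deposited raw counts per gene for all 16 samples, made from reads trimmed with Trimmomatic 0.33, aligned to GRCm38 with HISAT2 2.1.0 and counted with featureCounts 1.6.2 on Ensembl 100, as the study's methods and the submitters' processing notes state. Counting left out reads that map to several places by default, so genes with near-identical copies (Ldha, Tubb5 and other genes with pseudogenes, or the Cd300 and Pilr families) are uncertain. The counts were used as deposited.

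Genes that passed 1 CPM in 2 samples or more went into edgeR 4.0.16 (limma 3.58.1, R 4.3.3), with RLE factors and a quasi-likelihood fit over all 16 samples, whose other groups (CM_Rux_2h, CM_Rux_IKK) entered the filter, the factors and the estimate of spread. With only the groups compared, 11910 genes were tested, with 2481 higher and 2842 lower. Thresholds were 0.05 for the adjusted p-value and 0.5, in either direction, for the log2 fold change. The SE is the log2 fold change divided by the square root of the F statistic. The tests were also tried on simulated data. Replicates differed by more than sampling noise (15.1 to 45.3 for chi-square over its degrees of freedom), and depth was 18892363 to 38502700 counts in the 5 samples, in which mitochondrial genes took 0.785% to 0.974%. For CM_Rux_4h and No_CM_Rux the 3 samples with the same number deviated together (correlations of 0.39, 0.16 and 0.28), as did those of CM and CM_Rux_4h (0.57, 0.76 and 0.61), so the numbers pair them. The fit without the block was kept as the main one, and the blocked counts are given beside the difference.

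The comparison and the gene lists were chosen with earlier results of these data known. In each list a few well-known genes were named whatever their value, with up to 3 rises and 3 falls that were called, had a mean of at least 5 CPM and no overlap. Over all genes, the 10 largest of each were eligible, at a mean of at least 20 CPM and without cytokine or chemokine symbols. Kif11, Ckap2, S100a8, Mmp8, Cd247, Atp5a1, Ccnd3, Lpar1 and the genes of the ruxolitinib difference were named after their values were seen. Some genes that the rule names are not reported here. Of the listed genes, Atp5pb, Cdk3, Lilrb4b and Cd99 were not matched by symbol. Promoters came from RefSeq tables (GRCm38.p6), with 9210 of 12372 tested genes matched by symbol. Alternatives were TMM factors, total counts, no filter and the filterByExpr filter, DESeq2 1.42.0, the replicate number as a block, only the groups compared, and each sample left out. Lists, motifs and plots were made with numpy 2.4.6, matplotlib 3.10.9 and pandas 2.3.3 under Python 3.11.15.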

Additional observations from a re-analysis of the deposited data

Results flagged for a closer look

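Listed genes whose response to CM differed with ruxolitinib, by the test of the difference between the contrasts, are given as log2 fold change without ruxolitinib minus that with it (edgeR's quasi-likelihood test, 0.178% of all tested genes higher and 0.234% lower). Among the 3 with a lower response without ruxolitinib, the difference was -1.70 for Timd4, a receptor for phosphatidylserine (adjusted p = 0.047), and -0.66 for Rbl2, a retinoblastoma relative (adjusted p = 0.047). Another is not reported here. In 7 genes it was higher without ruxolitinib. These were Ski, a repressor of SMAD signalling (0.57, adjusted p = 0.027), Tlr4 (0.94, adjusted p = 0.041), Irf8 (0.97, adjusted p = 0.012), the IL-6 receptor gene Il6ra (1.30, adjusted p = 0.026), the death receptor relative Tnfrsf26 (1.37, adjusted p = 0.026), Mertk (1.95, adjusted p = 0.033) and Cd244a (2.29, adjusted p = 0.033), a gene at 2.50, 3.24 and 1.79 CPM in CM. Il6ra had 112, 109 and 80.2 CPM in CM and 103 and 152 CPM in DMEM without ruxolitinib, with overlap, and 39.9, 43.7 and 37.9 CPM in CM against 124, 143 and 112 CPM in DMEM with it. Timd4 had 22.4, 24.4 and 34.5 CPM in CM and 4.20 and 3.23 CPM in DMEM without ruxolitinib and 42.2, 57.3 and 57.6 CPM against 1.57, 2.59 and 2.33 CPM with it, higher in CM in both. All of the differences named here were also called by DESeq2 and with the replicate number as a block. When each of the 11 samples was left out in turn, that of Irf8 was called in 10 of the 11 fits, that of Tnfrsf26 in 6, and the others in 1 to 5.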

How the results depend on the processing

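Under TMM factors, DESeq2, either other filter, only the groups compared or the replicate number as a block, the counts of CM against DMEM and of its programs stayed within 1.5 times the reported ones. With the block they were 2682 higher and 3154 lower genes. Same-numbered samples of CM and DMEM also deviated together (correlations of 0.28 and 0.22), as did those of No_CM and No_CM_Rux (0.38 and 0.38). Only 2 numbers are shared there and CM_3 has no partner in DMEM. The fit without the block was kept as the main one, so any pairing of CM with DMEM is left out of it. Scaling by total counts gave 1536 higher and 4606 lower genes, 149 metabolic genes lower, 16 growth genes higher and 19 lower, 23 cell cycle genes higher and 68 transcription factors lower, and with ruxolitinib 1699 higher and 4674 lower genes. For CM against DMEM it left the median of all genes at -0.32 on the log2 scale, against -0.005 with RLE factors. It is RLE scaling that by construction places the middle gene near no change. Which scaling is closer to the true levels was not tested. The difference between the contrasts, 22 higher and 29 lower genes (309 and 433 at an unadjusted p under 0.05), had 88 and 149 with DESeq2, 136 and 213 without a filter, 197 and 247 with the replicate block and 41 and 49 under total counts, and the cause was not tested. Leaving out each of the 11 samples gave 5 (without No_CM_1) to 34 (without CM_Rux_4h_2) higher and 9 (without CM_1) to 84 (without No_CM_2) lower genes. For CM against DMEM, leaving out 1 of the 5 samples gave 2329 to 2642 higher and 2499 to 2902 lower genes. Of the values of named genes under the alternatives 3405 kept their direction and their side of the thresholds, 67 lost a call, 31 gained one and 0 turned, and the block changed 6 of them (2 lost, 4 gained). With 2 DMEM samples, changes near a log2 value of 0.5 and genes of a few CPM are the least certain.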
